A study of Mus musculus with 10 samples.

Results

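Skeletal muscle identity rests on a small family of basic helix-loop-helix (bHLH) transcription factors, and their transcripts were examined here in the gastrocnemius (GAS) of obese mice treated with an anti-miR-22 antisense oligonucleotide (ASO). The 10 genes were taken by symbol, with earlier results of these data known, from the 21098 genes of the count table. They comprise the 4 myogenic factors Myf5, Myod1, Myog and Myf6, the 2 E protein genes Tcf12 and Tcf4, the 3 inhibitors Id1, Id2 and Id3, and the homeobox gene Lbx1. All animals were wild-type C57BL/6J males that were fed the high-fat diet D12492i from an age of 9 weeks and were therefore models of diet-induced obesity (DIO). In the treated group (ASO), 5 mice received RES-010, an oligonucleotide with locked nucleic acid (LNA) modifications that blocks miR-22, subcutaneously at 10 mg/kg once a week for 14 weeks, and the 5 control mice (CTRL) received saline. The muscles were taken at 30 weeks of age, each library being polyadenylated RNA of whole tissue from one animal. No control oligonucleotide of another sequence is among these groups, so an effect of miR-22 inhibition and one of the oligonucleotide class cannot be told apart.

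The myogenic factors bind the E-box, a short palindromic DNA motif written CANNTG, as dimers with E proteins, the widely expressed bHLH partners encoded by Tcf3, Tcf4 and Tcf12. Id proteins have the helix-loop-helix but no basic DNA-binding region, so they hold E proteins in dimers that do not bind DNA. Myf5 and Myod1 commit cells to the muscle lineage and mark satellite cells and their progeny, Myog drives the terminal differentiation of myoblasts and rises in denervated fibers, and Myf6 (MRF4) is the family member most abundant in adult fibers. Lbx1 is a transcription factor of the muscle precursors that migrate into the limb.

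miR-22-3p, the target of the oligonucleotide, and 3 stretches of the Myog promoter are shown because the former defines the treatment and the latter hold the motifs through which bHLH and MEF2 factors are known to control the member that differed most between the groups. The sequences are from RefSeq on GRCm38.p6, with Myog on the plus strand of chromosome 1. Capitals mark the seed, bases 2 to 8, in the microRNA and the motif in the promoter, and numbers in the names count bases from the transcription start to the first motif base.
mmu-miR-22-3p, chr11:75463772-75463793: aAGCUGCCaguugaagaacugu
Myog E-box at -138, chr1:134289854-134289883: gggaaggggaatCACATGtaatccactgga
Myog A and T run at -63, chr1:134289930-134289959: gtggcgttggcTATATTTAtctctgggttc
Myog E-box at -12, chr1:134289980-134290009: aatggcacccagCAGTTGgtgtgaggggct

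In 32851 RefSeq promoters of the same window, from 250 bases before to 50 after the start, CANNTG occurred in 72.3%, CAGTTG in 13.7% and CACATG in 14.2%, each searched on both strands. The run TATATTTA, the core of the known MEF2 site of this promoter, occurred in 1.17%, and among the members' windows in those of Myog and of 1 Tcf12 start. The Myog window held 2 CANNTG motifs, as did 1 of the 3 Tcf12 windows, while the other Tcf12 windows held 1 each, the Id2 window 1, and the Id3 and Myf5 windows 0. Promoters of Myod1, Myf6, Id1, Tcf4 and Lbx1 were not analysed here. GGCAGCT, the match to the miR-22-3p seed, occurred in the longest annotated 3′UTR of 0 of the 10 members, whose lengths ran from 501 to 6007 bases, against 18.7% of the 7777 tested genes with an annotated 3′UTR. These are letter matches only, and a missing match concerns these windows and this heptamer alone.

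Counts covered the last 500 bp of 3′UTRs, and library totals lay between 1606909 and 2116720 in CTRL and between 2239186 and 2632560 with the ASO. The counts of treated libraries also lay further toward the 3′ end. A distal-over-proximal index of 3′ position, the median log2 ratio of counts on the most distal segment of a gene to those further upstream in 1402 genes, was −0.60 to 0.41 in CTRL and 1.17 to 1.71 with the ASO. This index does not overlap between the groups, and its part in each difference below cannot be told apart from that of the treatment. The tissue label was met by some myofiber markers, with Acta1, the skeletal actin, at 25154 to 68002 CPM, the counts scaled to a common library size. Others on that list were hardly counted. Mylpf, Tnnt3, Eno3 and Mb had 0 counts in every library, and the fast myosins Myh1, Myh2 and Myh4 had at most 1, 4 and 9. Counts here depend on overlap between segments, which was not examined for these genes, so their low counts are no measure of expression. CTRL replicate 3 stood apart with a summed adipocyte marker level of 4992 CPM, against 9.36 to 1296 CPM in the other libraries, and ASO replicate 4 with 617 CPM of Schwann cell markers against 46.0 to 171 CPM.

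Of the 10 members, 8 passed the filter on low counts. Myog and Lbx1 were higher and Tcf12 was lower with the ASO at an adjusted p under 0.05, while Myod1, Myf6, Id1, Id3 and Tcf4 did not pass and Myf5 and Id2 were too low to be tested. The calls come from quasi-likelihood F-tests in edgeR, adjusted by Benjamini-Hochberg over the 7813 genes tested, of which 11.8% were called higher and 17.4% lower. The median log2 fold change was 0.35 over the 8 members and −0.03 over all tested genes. All 5 treated libraries lay above all 5 controls for Myog, as they did for 7.97% of tested genes, and all below for Tcf12, as for 13.4%. Since the tissue was sequenced in bulk, more or fewer cells of a type cannot be told apart from more or less RNA per cell.

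**Figure D1:**
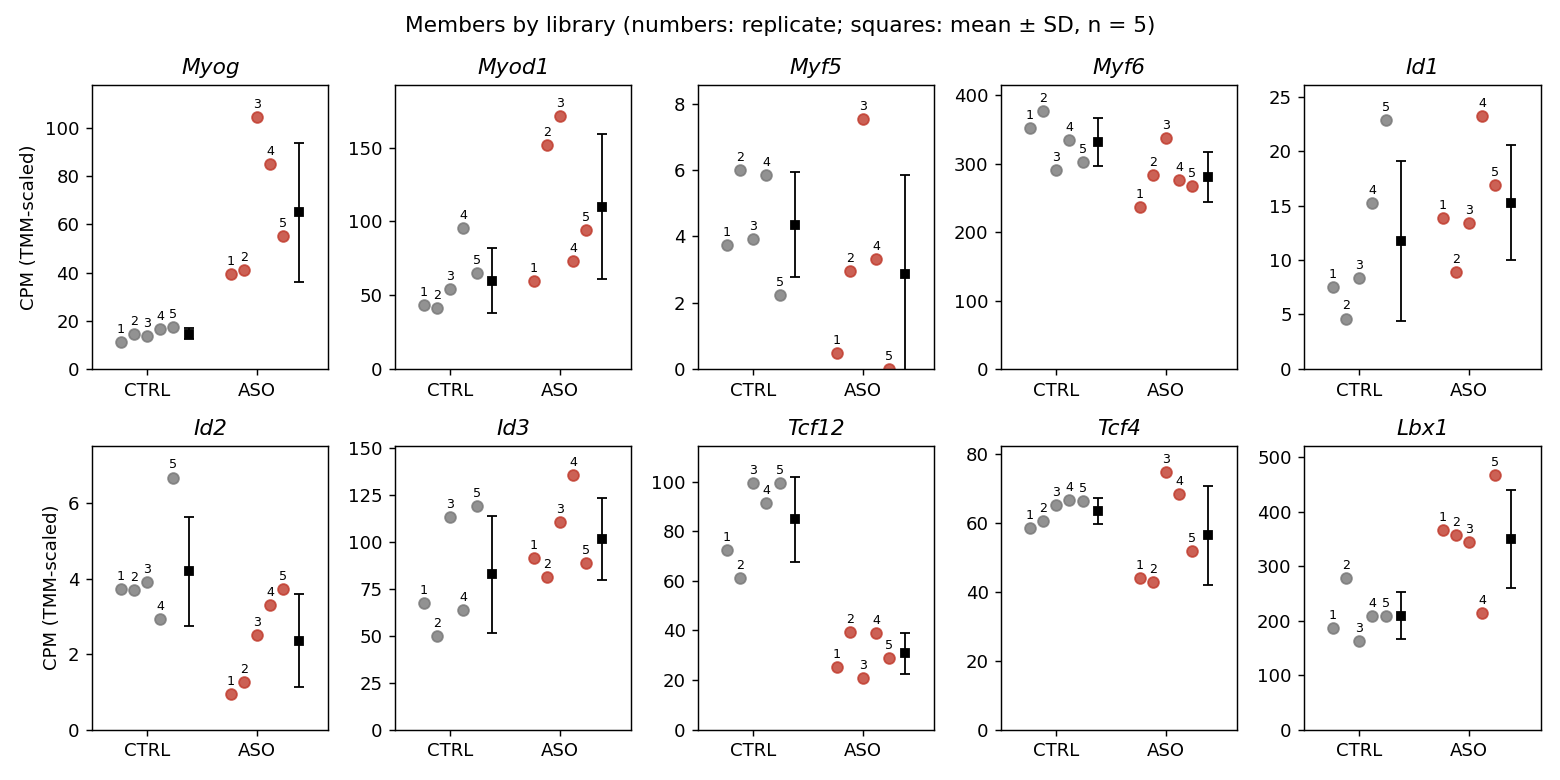
Level of each of the 10 genes in every library, in CPM scaled by TMM (linear axes from 0), with CTRL in grey, ASO in red, replicate numbers above the points and squares for the mean ± SD of 5 libraries. The groups do not overlap for Myog, at 11.2 to 17.3 CPM in CTRL and 39.3 to 105 CPM with the ASO, nor for Tcf12, at 61.1 to 99.5 CPM and 21.0 to 39.2 CPM, and they overlap for the other 8.

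Myog, the differentiation factor, had the clearest change among the members. Its single segment (GRCm39, chr1:134219787-134220286, plus strand, 3′UTR) had 24, 31, 28, 28 and 31 counts in CTRL replicates 1 to 5 and 82, 97, 249, 205 and 118 counts in ASO replicates 1 to 5. The controls were nearly alike, and the treated libraries ran from 82 to 249, with replicates 3 and 4 highest. The level rose from 14.6 ± 2.38 CPM to 65.0 ± 28.7 CPM (SD, n = 5 each), 4.46-fold, with a log2 fold change of 2.16 (SE 0.29, adjusted p = 0.000368, edgeR). Leaving out any one library kept the log2 fold change between 1.95 and 2.31. With the index of 3′ position as a covariate it was 1.54 (SE 0.82) and the call was lost (adjusted p = 0.94, edgeR).

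In ASO replicate 4 several genes of immature or slow fibers, chosen after their values were seen, had counts far above those of the other libraries. Embryonic myosin Myh3 had 75 counts there and at most 9 in any other library, the fusion micropeptide gene Mymx had 14 counts there and at most 1 elsewhere, and the slow myosin Myh7 had 641 counts there. The perinatal myosin Myh8 differed from these, with 22 counts in ASO replicate 3, 18 in ASO replicate 4 and at most 6 in any other library. Across the groups Myh7 gave 135, 15, 13, 38 and 0 counts in CTRL and 0, 0, 100, 641 and 21 counts in ASO. Myog was above every control in ASO replicates 1 and 2 too, where Myh7 and Myh3 both had 0 counts. Its levels there, 39.3 and 40.9 CPM, were the lowest treated ones, against 105 and 84.9 CPM in ASO replicates 3 and 4. Myh3 was counted on only 120 bp free of overlap with another segment. Whether immature or slow fibers have a part in the Myog difference was not tested. With CTRL replicate 3 and ASO replicate 4 both left out, a setting chosen after seeing the data, the log2 fold change of Myog was 2.04 (adjusted p = 0.00141, edgeR).

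Myod1, the lineage-determining factor of which the level is known to be higher in fast muscle, was more scattered. Its counts (chr7:46028024-46028523, plus strand) were 92, 89, 111, 163 and 117 in CTRL and 125, 361, 409, 176 and 201 with the ASO. Replicates 2 and 3 of the treated group lay above all controls, and the other 3 overlapped with them after scaling. Levels were 59.9 ± 22.1 CPM in CTRL and 110 ± 49.3 CPM with the ASO, a log2 fold change of 0.88 (SE 0.32) that did not pass the test (adjusted p = 0.0515, edgeR). The call lay at the threshold, since 8 of 22 alternative settings gave an adjusted p under 0.05, among them DESeq2 (0.0213), and 14 did not.

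Myf6 was the most abundant member in CTRL per length. Its 754, 816, 594, 572 and 543 counts in CTRL and 494, 674, 805, 668 and 572 counts in ASO (chr10:107328714-107329213, minus strand) gave 332 ± 35.5 and 281 ± 36.7 CPM. After scaling, 4 of 5 treated libraries lay below every control, with a log2 fold change of −0.24 (SE 0.14, adjusted p = 0.198, edgeR). This result depended on the scaling, since by total counts the log2 fold change was −0.41 and passed (adjusted p = 0.0259, edgeR).

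Myf5, which neighbours Myf6 on chromosome 10 (chr10:107318769-107319268, minus strand), was near the limit of counting. It had 8, 13, 8, 10 and 4 counts in CTRL and 1, 7, 18, 8 and 0 counts in ASO, that is 4.35 ± 1.59 and 2.86 ± 3.0 CPM. ASO replicate 3 was the highest of all 10 libraries and ASO replicate 5 had none, so no difference was detectable at this depth. The log2 fold change was −0.56 to −0.73 in the 4 fits that gave a value, none past the threshold.

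The 4 myogenic factors were each counted on one segment of 500 bp that no other segment overlaps, so their levels can be set side by side. Per kb, CTRL held 664 ± 71.0 CPM of Myf6, 120 ± 44.2 of Myod1, 29.2 ± 4.75 of Myog and 8.71 ± 3.18 of Myf5. With the ASO the order was the same, at 561 ± 73.5, 220 ± 98.6, 130 ± 57.4 and 5.72 ± 6.01 CPM per kb, and the intervals of mean ± SD of Myog and Myod1, apart in CTRL, overlapped. Of the summed counts of the 4 genes, Myf6 made up 80.8% ± 5.16 in CTRL and 62.3% ± 5.97 with the ASO, and Myog 3.57% ± 0.64 and 13.9% ± 4.27. The share of Myod1 was 14.6% ± 4.78 in CTRL and 23.3% ± 6.40 with the ASO. For Myf6 and Myog these shares did not overlap between the groups, with Myf6 at 74.0% to 86% against 54.4% to 70.4%. As parts of one whole the shares are not independent. Higher shares of Myog and Myod1 lower that of Myf6, whose own level did not pass the test.

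A ratio of genes within one library does not depend on how libraries are scaled. Myog had 0.261, 0.348, 0.252, 0.172 and 0.265 counts per Myod1 count in CTRL replicates 1 to 5, and 0.656, 0.269, 0.609, 1.16 and 0.587 in ASO replicates 1 to 5. ASO replicate 2 thus lay among the controls and the other 4 treated libraries above them. The mean log2 ratio, with 0.5 added to each count, was −0.75 ± 0.75 with the ASO and −1.96 ± 0.36 in CTRL, a difference of 1.21 (two-sided exact permutation test, p = 0.0159, n = 5 each, where 0.00794 is the smallest p the design allows). Per Myog count there were 17.5 to 31.4 counts of Myf6 in CTRL and 3.23 to 6.95 with the ASO, with no overlap.

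**Figure D2:**
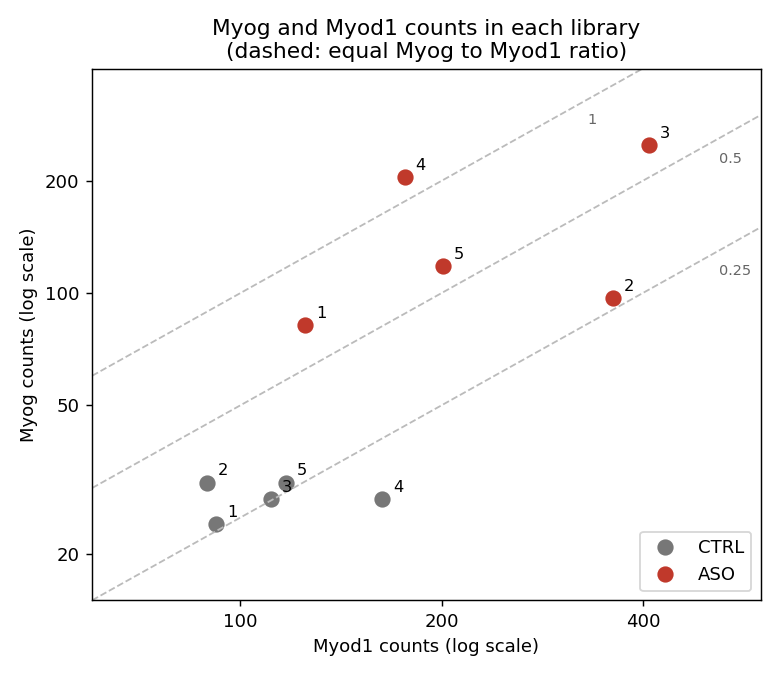
Counts of Myog against counts of Myod1 in each library, on log axes, with replicate numbers beside the points and dashed lines where the Myog to Myod1 ratio is 1, 0.5 or 0.25. Every treated library has more Myog counts than every control, and ASO replicate 2, at a ratio of 0.269, lies on the same line as most controls.

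The genes with the pattern over the 10 libraries most like that of Myog were found by the root mean square difference of centred log2(CPM + 1) values among 4596 genes. They were Vars1 at 0.44, Prr12 and Map1a at 0.51, and Chrnb1 and Rpl24 at 0.52. For Myod1 they were Hspb1 at 0.34, Kcnc4 at 0.36, Nfkb2 at 0.37, and Mtres1 and Parvb at 0.39.

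Among the dimer partners, Tcf12, which encodes the E protein HEB, had 155, 132, 203, 156 and 178 counts in CTRL and 53, 93, 50, 94 and 62 counts in ASO. The largest treated value lay well under the smallest control value. The level fell from 84.7 ± 17.2 CPM to 30.7 ± 8.15 CPM (SD, n = 5 each), to 0.364 of the control, with a log2 fold change of −1.46 (SE 0.21, adjusted p = 0.000508, edgeR). Unlike the myogenic factors, Tcf12 was counted on 12 segments (chromosome 9, minus strand), 8 of them with counts.

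The size of the Tcf12 difference changed with the segment. The segment 2035 bp before the last one (chr9:71752005-71752504) held 50.8% of the gene's counts and fell from 36.4 ± 5.02 to 21.0 ± 4.94 CPM, a log2 fold change of −0.75 (adjusted p = 0.00803, edgeR over 10652 segments). The one 2824 bp upstream (chr9:71752794-71753293) held 33.5% and fell from 30.9 ± 5.97 to 8.04 ± 3.60 CPM, a log2 fold change of −1.90 (adjusted p = 0.000331, edgeR). Segments at least 30000 bp upstream, which end other transcripts of the gene, held 12.3% to 28.1% of its counts in CTRL and 0% to 6.38% with the ASO. Those of them with counts all end transcripts annotated as targets of nonsense-mediated decay. The most distal segment itself had 23 counts over the 10 libraries and could not be tested. The fall passed the test on both segments that could be tested, and the estimate was smaller on the more distal one. The shift of counts toward distal segments in the treated libraries moves with this difference. With the index as a covariate the log2 fold change of Tcf12 was −0.41 (SE 0.45) and the call was lost (adjusted p = 0.979, edgeR).

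Tcf4, the gene of the E protein E2-2, had 125, 131, 133, 114 and 119 counts in CTRL and 92, 102, 178, 165 and 111 counts in ASO. The controls were close together at 63.5 ± 3.70 CPM, and the treated libraries lay on both sides of them at 56.4 ± 14.4 CPM, 2 above and 3 below all controls. The log2 fold change was −0.17 (SE 0.17, adjusted p = 0.483, edgeR). That sum joined segments of opposite direction. The segment with 58.7% of the counts, lying 1112 bp before the distal end segment, had 31.3 ± 7.95 and 37.5 ± 14.2 CPM and did not pass (log2 fold change 0.31, adjusted p = 0.367, edgeR). Those 6356 bp and 31241 bp upstream, which both end transcripts annotated as targets of nonsense-mediated decay, fell by 1.45 and 2.08 on the log2 scale (adjusted p = 0.0154 and 0.0185, edgeR).

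**Figure D3:**
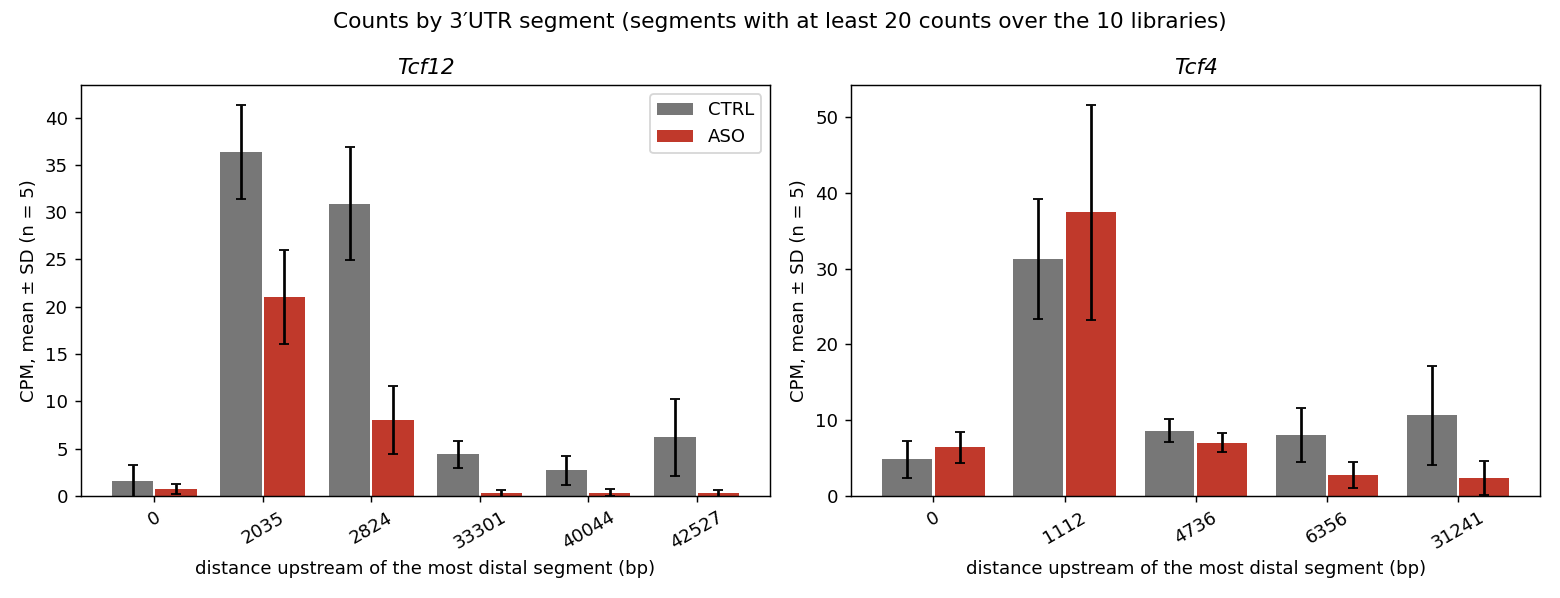
Mean CPM ± SD (n = 5) of CTRL (grey bars) and ASO (red bars) on each 3′UTR segment of Tcf12 and Tcf4 with at least 20 counts, ordered by distance in bp upstream of the gene's most distal segment. For Tcf12 the red bar is lower on every segment shown, whereas for Tcf4 it is higher on the 2 most distal segments and lower on the 3 upstream ones.

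Tcf3, the gene of the third E protein (E12 and E47), had 0 counts in all 10 libraries. Its 11 segments have no base free of overlap with another segment, so these zeros say nothing of its level, and the summed E protein supply cannot be given.

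Of the inhibitors, Id3 alone was counted on a full segment free of overlap, so its level cannot be ranked against those of Id1 and Id2. It had 144, 108, 231, 109 and 214 counts in CTRL and 191, 193, 264, 328 and 190 with the ASO (chr4:135872204-135872703, plus strand), or 82.7 ± 31.4 and 102 ± 22 CPM. The groups overlapped, and the log2 fold change of 0.30 (SE 0.24) did not pass (adjusted p = 0.382, edgeR). Id1 was counted on only 103 bp free of overlap, with 16, 10, 17, 26 and 41 counts in CTRL and 29, 21, 32, 56 and 36 with the ASO. Its levels were 11.7 ± 7.35 and 15.2 ± 5.29 CPM, with a log2 fold change of 0.40 (SE 0.40, adjusted p = 0.479, edgeR), so the error was as large as the estimate.

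Id2 had 8, 8, 8, 5 and 12 counts in CTRL and 2, 3, 6, 8 and 8 counts in ASO. Of these, 88.2% lay on a segment 1331 bp upstream, since the 2 distal segments overlap each other nearly in full. Its 4.20 ± 1.44 and 2.36 ± 1.23 CPM therefore describe that upstream segment, and with no filter the log2 fold change was −0.77 (adjusted p = 0.29, edgeR). None of the Id genes was called in any of the settings tried, and the errors of Id1 and Id3 leave room for differences in either direction. In the same libraries, Myod1 had 0.481 to 1.5 counts per Id3 count in CTRL and 0.537 to 1.87 with the ASO, which overlap. Myog had 0.121 to 0.287 in CTRL and 0.429 to 0.943 with the ASO, which do not.

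Lbx1 had 398, 602, 333, 357 and 373 counts in CTRL and 766, 849, 821, 517 and 999 counts in ASO (chr19:45221123-45221622, minus strand). ASO replicate 4, the library with the most counts of embryonic myosin, was the lowest treated value and the only one to overlap with the controls. Per kb, Lbx1 stood at 418 ± 86.3 CPM in CTRL, below Myf6, and at 700 ± 181 CPM with the ASO, above it. The level rose from 209 ± 43.2 to 350 ± 90.3 CPM, 1.68-fold, with a log2 fold change of 0.74 (SE 0.20, adjusted p = 0.0165, edgeR). Counting only the most distal segment of every gene, which for Lbx1 is its sole segment, so that the scaling and the genes tested alone differ, gave 0.46 and ended the call (adjusted p = 0.149, edgeR), as did the index as a covariate (0.45, adjusted p = 0.979, edgeR).

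**Figure D4:**
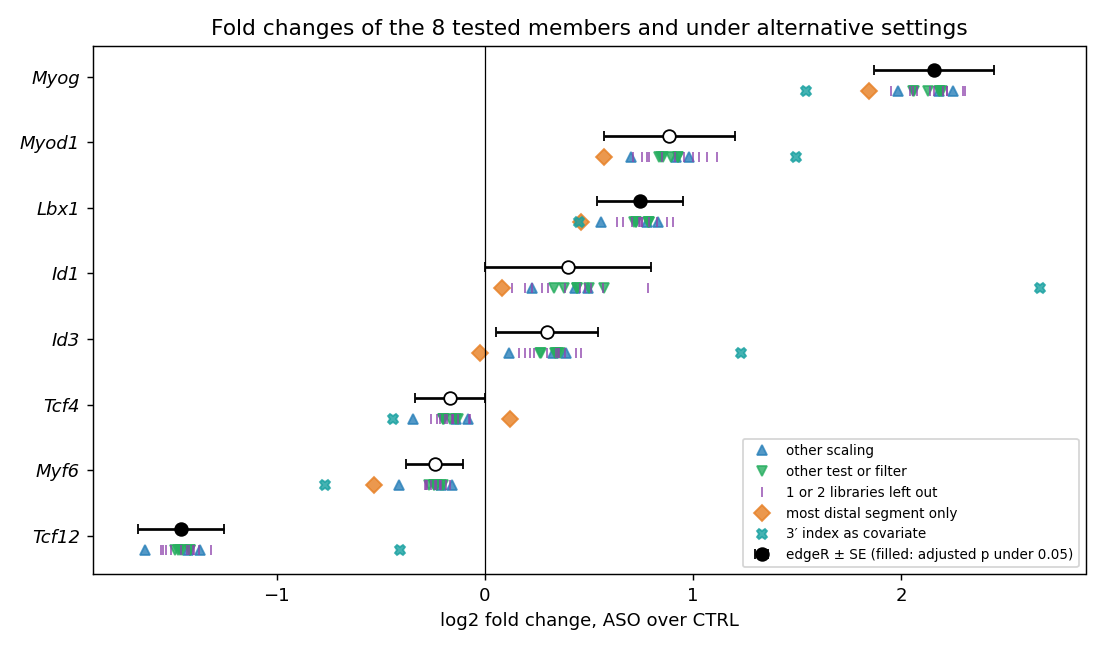
Log2 fold change (ASO over CTRL) of the 8 tested members with its SE (black circles, filled where the adjusted p is under 0.05), and below each circle its values under other scalings, other tests or filters, with 1 or 2 libraries left out, on the most distal segment only and with the index of 3′ position as a covariate. With that covariate Myog is at 1.54 and Tcf12 at −0.41, neither of them called, against 1.84 to 2.31 and −1.63 to −1.31 in the other settings shown, while Id3 and Tcf4 take either sign.

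Satellite cells, the muscle stem cells, were followed by 12 markers. Their summed level was 193 to 295 CPM in CTRL and 309 to 542 CPM with the ASO. Of the 7 markers tested 2 were higher, Cdh15 (M-cadherin) and Sdc4, by 1.23 and 0.94 on the log2 scale. Sdc4 alone went from 101 ± 30.8 to 194 ± 75.6 CPM. The rise of the sum mainly follows these 2 genes and not the list. The other 5 did not pass, at log2 fold changes of 0.11 to 0.36 (edgeR). Pax7, the defining marker, had 9 to 23 counts in CTRL and 18 to 21 counts with the ASO. Myofiber markers summed to 52712 to 100889 CPM and 105444 to 169961 CPM, with 3 of 6 tested higher and none lower. Over all tested genes 11.8% were called higher and 17.4% lower. Both sums were higher in every treated library than in every control, as were 7.97% of the tested genes taken singly. Their part in the differences of Myog and Lbx1 was not tested. Fibroblast, macrophage and adipocyte marker sums overlapped between the groups, with 1 of 5, 1 of 6 and 0 of 6 tested markers called, the former both lower. Of the endothelial markers, Pecam1 was at or near 0 in all libraries while Cdh5 had 54.4 to 158 CPM. Endothelial, Schwann cell, smooth muscle and neuromuscular marker sums overlapped as well, with 0 of 11, 0 of 5, 2 of 6 and 0 of 2 tested markers called.

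Genes that the myogenic factors are known to switch on did not move as one. Of 36 such genes 18 were tested, 5 were higher, 3 were lower and 10 did not pass, with a median log2 fold change of 0.48. Over all 7813 tested genes 11.8% were called higher and 17.4% lower, with a median of −0.03. The 5 genes with the smallest p lay in both directions. Chrnb1, a subunit of the acetylcholine receptor, rose from 76.9 ± 22.1 to 183 ± 41.3 CPM (log2 fold change 1.25, adjusted p = 0.00113, edgeR). Cdh15 rose by 1.23 and Cav3, the muscle caveolin, by 1.22 on the log2 scale (adjusted p = 0.000333 and 0.00044, edgeR). Mef2c, the MEF2 factor that acts together with the myogenic factors, fell from 371 ± 193 to 45.0 ± 3.80 CPM (log2 fold change −3.04, adjusted p = 0.000111, edgeR), and Smyd1, a muscle methyltransferase, fell by 1.75 (adjusted p = 0.000458, edgeR). Chrna1, the receptor subunit often used to follow Myog activity, had 4 to 6 counts in CTRL and 4 to 19 with the ASO and was not tested. With the index as a covariate none of the 7813 tested genes was called, those of this list included, at a smallest adjusted p of 0.94 (edgeR), and 380 genes had an unadjusted p under 0.05. Since the index does not overlap between the groups, that fit can hardly separate it from the treatment.

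**Figure D5:**
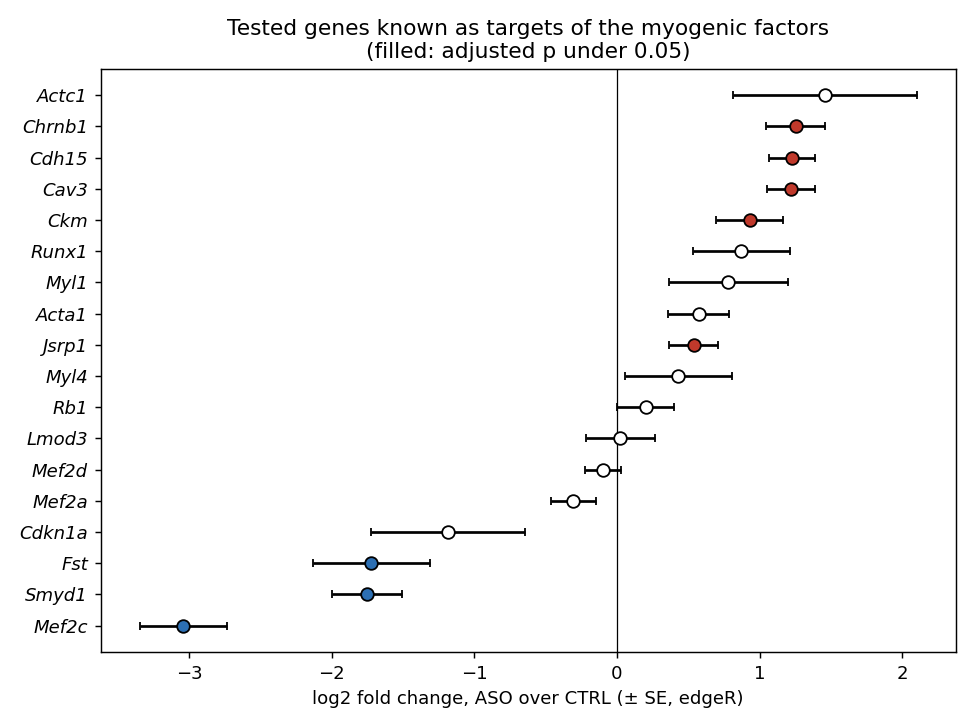
Log2 fold change (ASO over CTRL) with its SE for the 18 tested genes known as targets of the myogenic factors, filled red where higher and blue where lower at an adjusted p under 0.05 (edgeR). The values run from −3.04 for Mef2c to 1.46 for Actc1, which did not pass the test, with 5 genes called higher and 3 lower.

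Of 23 genes that act upstream of the family, 16 were tested, with 1 higher, 3 lower and a median of −0.03. Shares called over all tested genes, for comparison with this list and those that follow, were 11.8% higher and 17.4% lower. The histone deacetylase gene Hdac5, whose product represses MEF2, rose by 0.79, whereas Eya1, a transcriptional coactivator of muscle precursors, fell by 1.36 and Dach2, a repressor of Myog in innervated fibers, fell by 1.94 on the log2 scale. Of 43 other bHLH genes 25 were tested, with 1 higher and 4 lower (median −0.12). Among them Arnt, a shared partner of the PAS-type bHLH proteins, fell by 2.01, Bhlhe41 fell by 2.39 and Hes1, a repressor downstream of Notch, fell by 1.01. Of 32 cofactors and inhibitors 20 were tested, with 2 higher and 4 lower (median −0.13). Smarca4, the ATPase of SWI/SNF remodelling complexes, rose by 0.77, while Zeb1, a repressor that competes for E-boxes, fell by 1.64 and the ubiquitin ligase gene Huwe1 fell by 2.97.

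BMP signals are the classical inducers of Id genes through Smad1 and Smad5. Of 40 pathway genes 22 were tested, with 1 higher and 8 lower and a median log2 fold change of −0.48. Shares over all tested genes, 11.8% higher and 17.4% lower, apply to this list and to the Notch and denervation lists. Smad5 fell from 97.7 ± 12.5 to 42.5 ± 7.47 CPM (log2 fold change −1.20, adjusted p = 0.000285, edgeR), Smurf1 fell by 1.31 and Crim1 by 1.43. Smad1 lay in the other direction, at 13.8 ± 4.68 and 21.5 ± 3.45 CPM, and did not pass (log2 fold change 0.63, adjusted p = 0.0579, edgeR). The gene called higher, named here after its values were seen, was the BMP co-receptor gene Hjv, which rose from 1884 ± 353 to 3257 ± 733 CPM (log2 fold change 0.79, adjusted p = 0.00955, edgeR) without overlap between the groups. The summed level of the list was 2532 to 3320 CPM in CTRL and 3501 to 5049 CPM with the ASO, opposite in direction to the median. Hjv made up most of this sum in both groups, so the sum mainly follows that gene and not the list. Of 27 Notch pathway genes 22 were tested, with 2 higher and 3 lower (median 0.01), and the 3 with the smallest p were the glycosyltransferase gene Rfng, which rose by 0.88, Hes1, and the protease gene Adam17, which fell by 0.98. Of 21 genes known to respond to denervation, as Myog does, 11 were tested, with Chrnb1 higher and Dach2 and Trim63 lower (median 0.52). Trim63, the muscle ubiquitin ligase MuRF1, fell by 0.77. Chrng, the fetal receptor subunit induced by denervation, had 0 counts in every control and 0 to 2 with the ASO. Overlap of its segments with others was not examined, so these counts do not show whether its level differed.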

How the data were processed

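Gastrocnemius libraries of 5 ASO and 5 CTRL mice were analysed, grouped by their labels. The authors deposited unnormalized counts. These came from fastp trimming, STAR alignment on GRCm39 and featureCounts with Gencode M25, each count falling within the last 500 bp of 3′UTRs, with no strand option named, so genes that overlap on opposite strands cannot be told apart. Such restriction to transcript ends makes a count depend on where a transcript ends and on overlapping segments. The table has 52423 segments, of which 52361 were mapped to genes by GENCODE M39, and the 62 others hold 0.0197% of the counts. A further 4 per-sample columns were not used.

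Segments were summed per gene and tested with edgeR 4.0.16 in R 4.3.3 (TMM, filter on low counts by group, quasi-likelihood test, Benjamini-Hochberg adjustment at 0.05). CPM values are scaled by TMM. A floor of 3 counts is used, for counting error only. DESeq2 1.42.0 and limma-voom 3.58.1 were alternatives, with other scalings and filters, a replicate block, each library left out, thinning to 1606909 counts, the most distal segment only and the index as a covariate. The index used segments at least 1000 bp apart. Each segment on its own, and both unusual libraries left out, were added after seeing the data. Ratios were compared by exact permutation over 252 labellings. In simulated data for this comparison, 73.2% of 2-fold and 100% of 4-fold changes were recovered among 7898 genes, with 6 false calls. Those counts were drawn with the real library totals, a dispersion of 0.05 and no difference in 3′ position between the groups. The rates therefore do not carry over to genes with more scatter or to the 3′ shift of these libraries.

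Members and lists were chosen with earlier results of these data known. Named genes are all members, the 3 called members of each list with the smallest adjusted p (5 for targets), and the 5 genes most like Myog and Myod1. Pax7, Actc1, Chrna1, Chrng, Tcf3, Acta1, Sdc4, Cdh5, Pecam1, Hjv, Mymx and the myosins were named after their values were seen. The same holds for Mylpf, Tnnt3, Eno3, Mb and Smad1. Libraries are taken as 1 animal each from their titles, and errors are SDs.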

Additional observations from a re-analysis of the deposited data

Results flagged for a closer look

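Id2 reached 6.69 CPM in CTRL replicate 5, far from the other 4 controls, which lay between 2.93 and 3.92 CPM. It was the 1 such sample among 20 groups examined, 10 members in each of 2 treatments, and chance gives about 1 in 20. In counts it is 12 against 5 to 8.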

How the results depend on the processing

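Of 179 alternative values, 163 were on the same side of the threshold with the same direction. Myog was called in 21 of 22 alternatives, Tcf12 in 20 of 21, Lbx1 in 20 of 22, Myod1 in 8 and Myf6 in 2 of 22, and Id1, Id3 and Tcf4 in 0. With the index of 3′ bias added as a covariate, 0 genes were higher and 0 lower (edgeR), and 380 of 7813 had an unadjusted p under 0.05. Thus 0 members were called in either direction, with log2 fold changes of 1.54 for Myog, −0.41 for Tcf12 and 0.45 for Lbx1. The index does not overlap between the groups, so this fit can hardly separate it from the treatment. The SE of Myog was 0.82 in it, against 0.29 without the index. On the most distal segment only, 231 genes were higher and 335 lower, 1 member (Myog) was higher and 1 (Myf6, −0.53, adjusted p = 0.0129) lower, Tcf12 had too few counts, and Id3 (−0.022) and Tcf4 (0.12) changed sign, as Tcf4 did on its segments at 0 bp (0.45) and 1112 bp (0.31). Total counts gave 540 higher and 1813 lower genes, 2 members being lower, against 920 and 1363 by TMM and 1262 and 1206 by upper quartile, and shifted the median of all genes to −0.20. The causes were not tested.

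Leaving out libraries gave 692 to 1021 genes higher and 1126 to 1369 lower, and 2 or 3 members higher and 1 lower. Without CTRL replicate 3 and ASO replicate 4 there were 850 and 1200 genes, with Myod1 as the third member (1.00, adjusted p = 0.0455, edgeR). Leaving out ASO replicate 4 moved the log2 ratio of Myog to Myod1 to 0.97 and ASO replicate 2 to 1.5 (exact permutation, p = 0.0317 and 0.00794). Same-numbered libraries deviated with correlations of −0.43 to 0.16, so numbers do not pair them. With the replicate block 662 genes were higher and 1172 lower, with 2 members higher and 1 lower, and the ratio difference of 1.21 had p = 0.125 (exact sign flips, smallest possible 0.0625). Depth limits Myf5, Id1 and Id2, at 0 to 56 counts per library.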
